A study of Mus musculus with 8 samples.

Results

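Clotting and plasminogen activation were examined through 10 genes in the lungs of mice with an inducible interleukin-1b (IL-1b) transgene. The genes were chosen by symbol, F3, F7, F10, F5, F13a1, Tfpi, Thbd, Plat, Plau and Plaur, and all 10 were measured, by 14 of the 43681 probe sets on the array, among 27200 genes in all. The series holds 5 whole-lung arrays of the dox group, in which doxycycline (dox) was given to induce the transgene, and 3 of the water group. All mice were BALB/c and carried the transgene, and treatment lasted 7 days. Their age was about 12 weeks per the labels but 5 weeks per the header of a deposited table, and the files do not settle which is right. The comparison asks which lung transcripts differ once IL-1b is induced. The series title calls the transgene lung-specific, and the sources used here name neither its promoter nor its species of origin. No lungs of dox-treated mice lacking the transgene were analysed here, and effects of dox and of IL-1b cannot be told apart. Since the labels do not say that each array is a separate animal, p-values reflect only how far these arrays spread, which may be technical.

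Clotting starts when tissue factor (F3), a membrane protein, meets factor VII (F7) from plasma. The pair activates factor X (F10), which with its cofactor factor V (F5) turns prothrombin into thrombin, and thrombin makes fibrin that factor XIII (F13a1) cross-links. Tfpi blocks the tissue factor step and factor X, and thrombomodulin (Thbd) on endothelium turns thrombin into an activator of the anticoagulant protein C. Plat (tissue-type) and Plau (urokinase) turn plasminogen into plasmin, which dissolves fibrin, and Plaur holds urokinase on the cell surface. Fibrin deposition in the air spaces is a known feature of inflamed lungs. Liver is the main source of plasma F7, F10 and plasminogen, although macrophages are known to make F7, F10 and F13a1 as well.

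Of the 10 genes, 4 rose in dox lungs, 0 fell and 6 did not pass the threshold (limma, adjusted p below 0.05 over all genes). The genes that rose were F13a1, F10, F7 and Plaur, by 2.68-fold, 2.11-fold, 1.83-fold and 1.44-fold. Over all genes, 5.00% passed, 3.48% upward and 1.52% downward. The groups did not overlap for 5 of the 10, 4 higher and 1 lower in dox lungs, against 14.2% of all genes, 7.25% higher and 6.96% lower. The median log2 change, dox minus water, was 0.18 over the 10 genes and -0.025 over all genes. Values are intensities on a linear scale, as deposited, and changes are given with limma's standard error (SE) and 95% interval. Of the 10, 9 genes were above the array median of 40.8 to 41.9 units on all 8 arrays, and Plau lay below it.

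**Figure D1:**
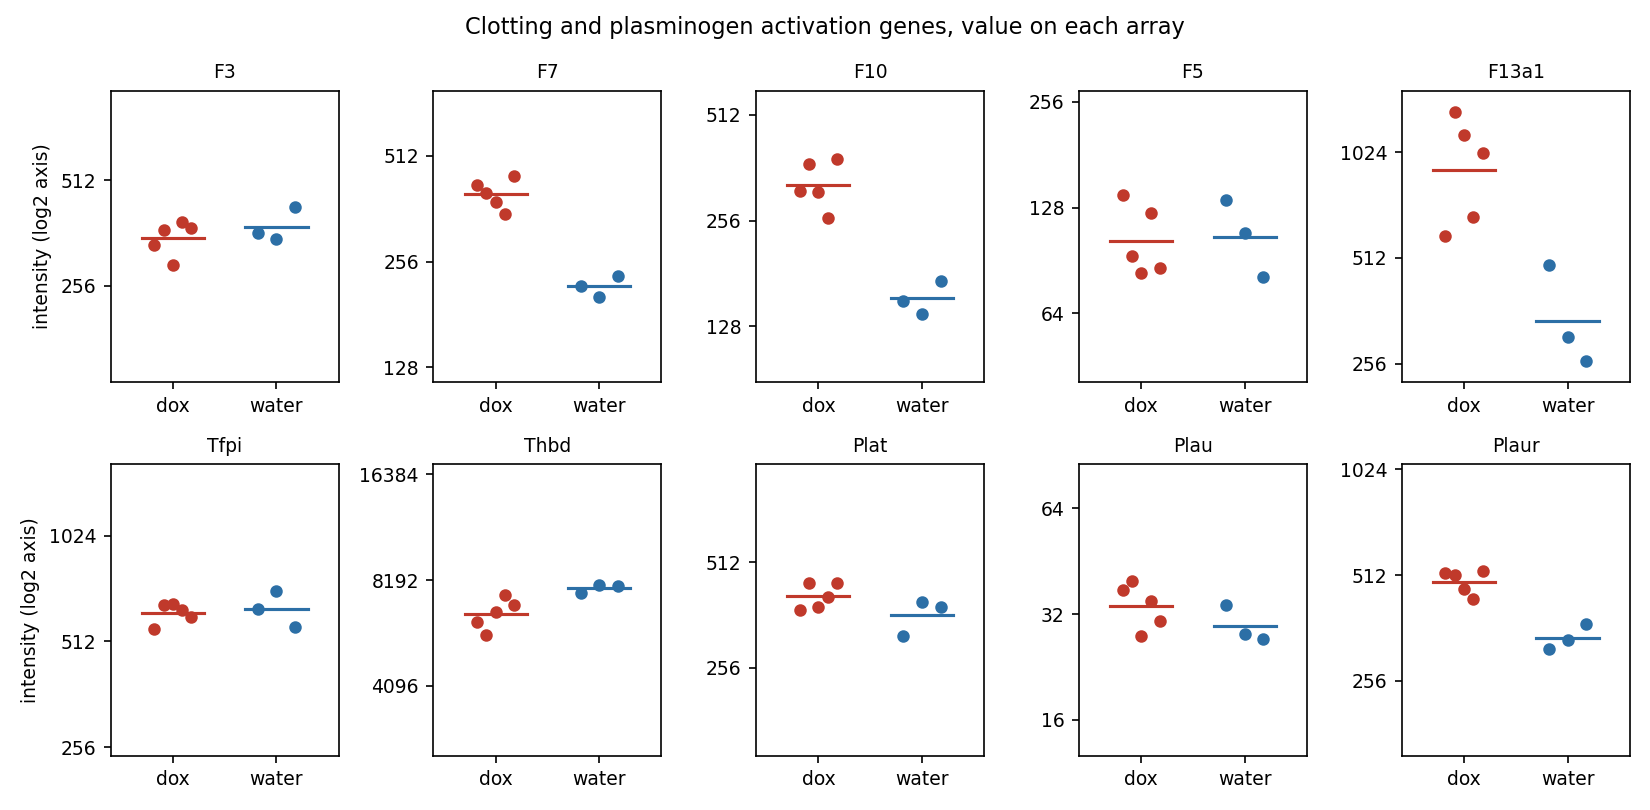
Intensity of each gene on each array, on a log2 axis, with the 5 dox arrays at the left and the 3 water arrays at the right of each panel; the bar is the geometric mean. The dox points of F7, F10, F13a1 and Plaur all lie above the water points, those of Thbd all lie below, and the groups overlap for the other 5 genes.

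At the start of the cascade, the protease rose and its receptor did not pass. F3 had 336, 369, 293, 390 and 373 units in the 5 dox lungs, against 361, 348 and 428 units in the water lungs. The groups overlapped, and the log2 change was -0.11 (SE 0.10, 95% interval -0.34 to 0.12, adjusted p = 0.646). An increase of F3 beyond 1.09-fold thus lay outside the interval. F7 had 423, 401, 379, 349 and 450 units in dox lungs, against 219, 203 and 233 units in water lungs. Every dox lung was above every water lung, and the log2 change was 0.87 (SE 0.09, 0.67 to 1.07, adjusted p = 0.000287).

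F10, the protease that both clotting routes share, had 311, 372, 308, 260 and 383 units in dox lungs, against 151, 139 and 173 units in water lungs. The lowest dox value, in dox 4, still lay above the highest water value, and the log2 change was 1.07 (SE 0.13, 0.79 to 1.35, adjusted p = 0.00072). F7 also had its lowest dox value in dox 4 and its highest in dox 5. The rise of F10 exceeded that of F7 by 0.20 on the log2 scale (SE 0.07), and the difference did not pass (exact permutation test over the arrays, 2-sided, p = 0.0714, 0.357 adjusted over 5 pairs of genes). The smallest p that 5 against 3 arrays allow in that test is 0.0357.

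F5, the cofactor of factor X, did not pass and varied widely within each group. It had 139, 93.1, 83.6, 124 and 86.1 units in dox lungs, against 134, 108 and 81.0 units in water lungs (log2 change -0.04, SE 0.20, 95% interval -0.47 to 0.40, adjusted p = 0.943). Arrays dox 1, dox 4 and water 1 were the high ones. In mice, megakaryocytes make the factor V that platelets carry, and platelet genes are therefore given beside it. Ppbp, a chemokine of platelet granules, had 1127, 560, 531, 849 and 340 units in dox lungs, against 1214, 889 and 647 units in water lungs. Tubb1, the tubulin of platelets, had 383, 207, 213, 329 and 155 units in dox lungs, against 461, 344 and 243 units in water lungs. Within dox lungs, arrays 1 and 4 were the highest for F5, Ppbp and Tubb1 alike, and within water lungs all 3 genes were highest in array 1 and lowest in array 3. Pf4, another platelet chemokine, was dim (19.7 to 29.3 units) and did not share this order, with its highest value in dox 5. Mmrn1, another platelet marker, was also highest in dox 1 and dox 4 among dox lungs. Among water lungs it was highest in water 3 (195 units, against 174 units in water 1). Ppbp, Tubb1 and Pf4 were picked after their values were seen, and whether platelet content plays a part in the spread of F5 was not tested.

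**Figure D2:**
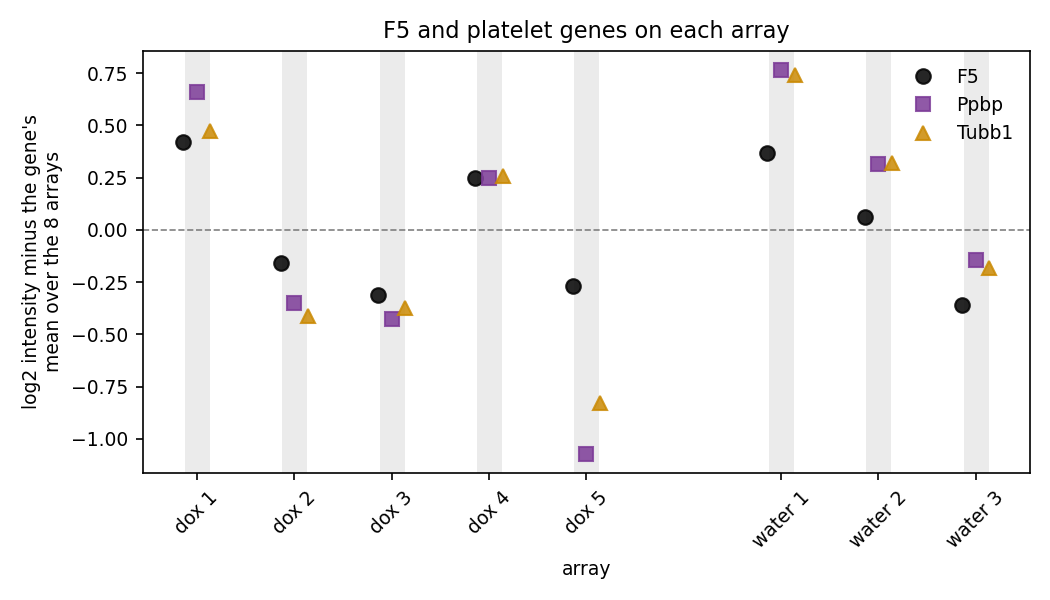
Log2 intensity of F5 (circles), Ppbp (squares) and Tubb1 (triangles) on each array, as the difference from the gene's mean over all 8 arrays. On dox 1, dox 4 and water 1 all 3 genes stand above their means, and on dox 2, dox 3, dox 5 and water 3 they stand below.

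F13a1, the catalytic subunit of the transglutaminase that stabilises fibrin, had the largest rise of the 10 and the widest spread. Its brightest probe set had 591, 1332, 1147, 671 and 1019 units in dox lungs, against 489, 304 and 261 units in water lungs. Arrays dox 1 and dox 4 were low among the dox lungs, and water 1 was high among the water lungs, yet the groups did not overlap. The log2 change was 1.42 (SE 0.28, 95% interval 0.80 to 2.04, adjusted p = 0.0153). The second probe set had 69.0, 110, 89.9, 61.5 and 57.9 units in dox lungs, against 45.4, 41.6 and 34.8 units in water lungs, again without overlap. Tested on its own over all probe sets, it rose by 0.90 (SE 0.19, adjusted p = 0.0301), where 3.10% of all probe sets passed and 2.31% rose. Of all probe sets, 12.2% did not overlap between groups, 6.04% being higher in dox lungs. The call of F13a1 was lost without water 2 (adjusted p = 0.0644) or water 3 (0.0675) and with limma's trend and robust prior (0.0698). It was also lost with the replicate number as a block (adjusted p = 0.0977). The log2 change was between 1.16 and 1.69 over all alternatives run.

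**Figure D3:**
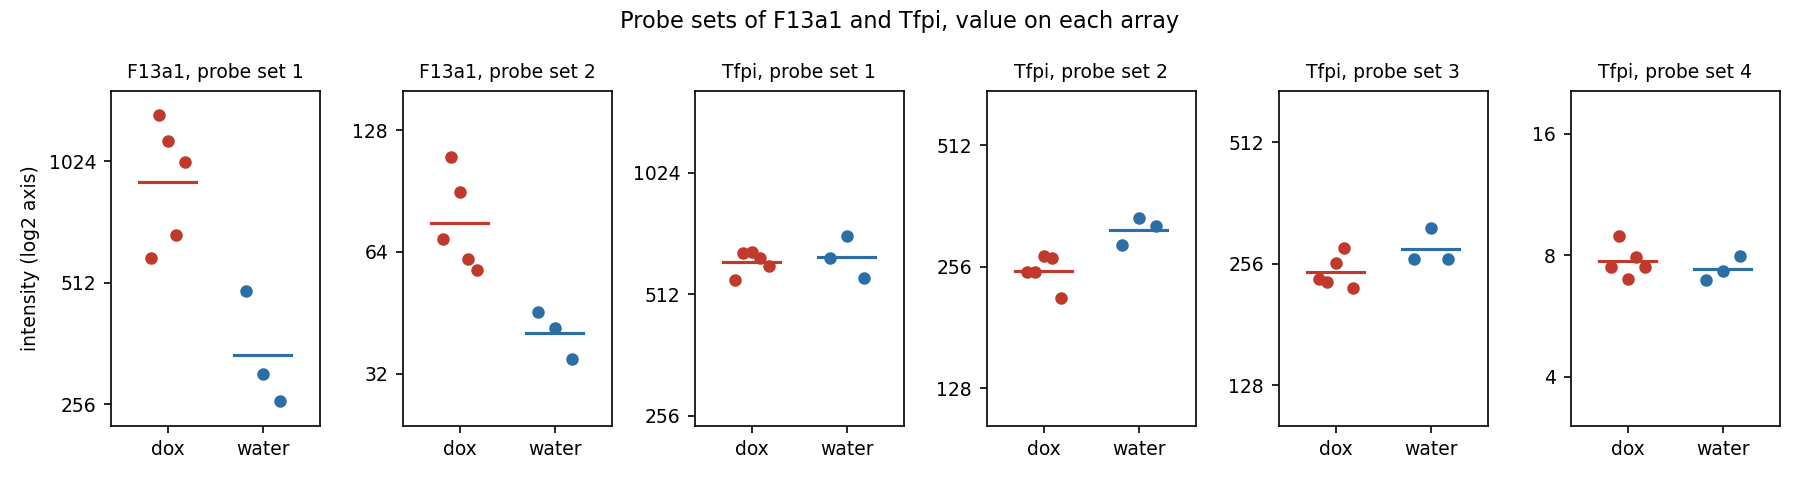
Intensity on each array of the 2 probe sets of F13a1 and the 4 of Tfpi, numbered by brightness, on log2 axes; dox is left of water and bars are geometric means. The dox points lie above the water points for both F13a1 probe sets, and below them for the second Tfpi probe set alone.

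F7 and F10 are direct neighbours on mouse chromosome 8, and the gene next to them, Proz, rose as well. Proz encodes protein Z, a cofactor for the inhibition of activated factor X, and had 104, 75.9, 74.7, 80.2 and 111 units in dox lungs, against 26.8, 31.2 and 33.7 units in water lungs. All dox lungs lay above all water lungs, and the log2 change was 1.53 (SE 0.14, 1.21 to 1.85, adjusted p = 0.00015). The flanking genes did not follow. Mcf2l, before F7, had a log2 change of -0.20 (SE 0.16, adjusted p = 0.558), and Pcid2, after Proz, of 0.08 (SE 0.10, adjusted p = 0.739). Of the 11 measured genes shown along that stretch, F7, F10 and Proz rose, Grtp1 fell by 0.31 (adjusted p = 0.0497, a call lost in all 8 fits that left out 1 array), and the rest did not pass. The 3 proteins are related in sequence, and cross-hybridisation between their probe sets was not tested. Proz was in the list of anticoagulants, while its place on the chromosome was looked up after its value was seen.

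**Figure D4:**
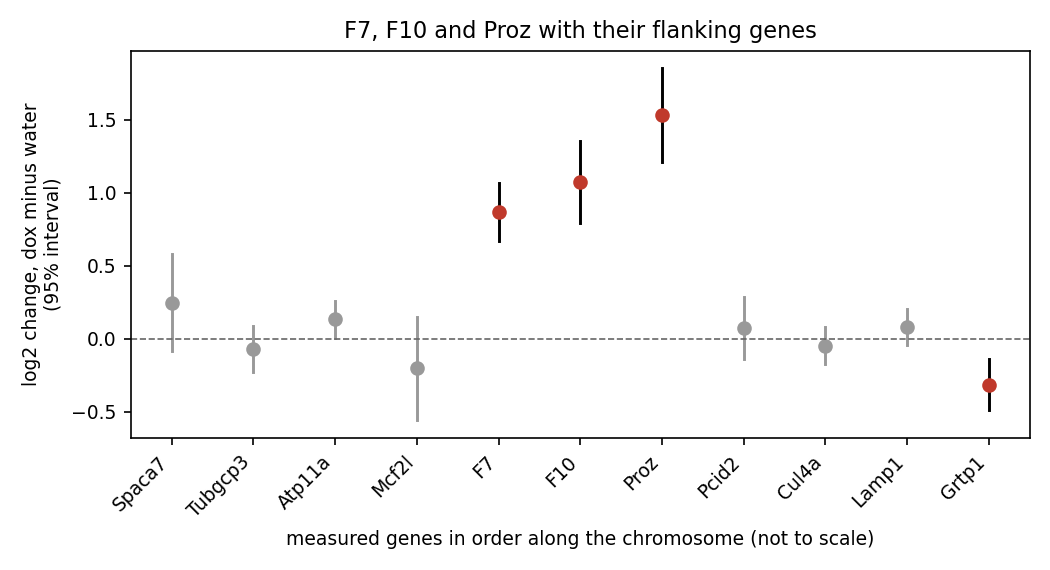
Log2 change, dox minus water, with its 95% interval, of F7, F10, Proz and the measured genes on either side, in their order along chromosome 8 and not to scale; red points passed the threshold. F7, F10 and Proz stand at 0.87, 1.07 and 1.53, and their direct neighbours Mcf2l and Pcid2 have intervals that hold 0.

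For the other genes that rose, neighbours were less alike. Ly86, next to F13a1 and known as a partner of a Toll-like receptor homologue on myeloid and B cells, rose by 0.85 (SE 0.14, adjusted p = 0.00611), whereas Nrn1 on the other side did not pass. Neither direct neighbour of Plaur passed. F5 lies beside the selectin genes, of which Selp, its direct neighbour, rose by 1.07 (SE 0.15, adjusted p = 0.00191) and Sele by 1.26 (SE 0.20, adjusted p = 0.00541), while F5 did not.

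The upstream sequences of F7 and F10, which moved together, and of F3 and Plaur, which hold motif matches, are shown for the 250 bases before each start, on the plus strand of RefSeq's GRCm38.p6: F7 at chr8:13025784-13026033, F10 at chr8:13037058-13037307, F3 at chr3:121723287-121723536 and Plaur at chr7:24462233-24462482. Capitals mark exact matches on either strand to AP-1 (TGANTCA) or C/EBP (TTGCNNAA). PU.1 (GAGGAAGT), HNF4 (CAAAGTCCA) and the NF-kB consensus were also searched and had no match in the windows of these genes.
F7: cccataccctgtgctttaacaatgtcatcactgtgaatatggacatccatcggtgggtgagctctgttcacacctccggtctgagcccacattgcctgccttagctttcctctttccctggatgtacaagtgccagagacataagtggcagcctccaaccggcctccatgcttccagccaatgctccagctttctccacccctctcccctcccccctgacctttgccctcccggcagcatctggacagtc
F10: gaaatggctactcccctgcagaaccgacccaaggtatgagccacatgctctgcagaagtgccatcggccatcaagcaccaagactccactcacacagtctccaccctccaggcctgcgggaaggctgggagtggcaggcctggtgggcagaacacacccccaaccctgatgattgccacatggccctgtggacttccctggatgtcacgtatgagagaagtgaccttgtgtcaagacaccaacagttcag
F3: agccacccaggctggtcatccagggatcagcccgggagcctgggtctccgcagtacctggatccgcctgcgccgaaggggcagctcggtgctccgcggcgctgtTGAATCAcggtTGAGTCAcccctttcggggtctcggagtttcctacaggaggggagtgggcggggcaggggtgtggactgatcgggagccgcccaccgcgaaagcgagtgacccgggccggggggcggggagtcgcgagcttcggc
Plaur: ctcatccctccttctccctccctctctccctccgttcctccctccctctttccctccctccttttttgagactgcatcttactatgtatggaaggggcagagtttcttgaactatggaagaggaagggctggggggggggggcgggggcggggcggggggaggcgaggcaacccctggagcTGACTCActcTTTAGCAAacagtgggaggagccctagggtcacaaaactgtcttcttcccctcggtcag
Windows were found for 7 of the 10 genes; Thbd, Plat and Plau had no entry. The F3 window holds TGAATCA from -146 to -140 and TGAGTCA from -135 to -129, counted back from the start, and the Plaur window holds TGACTCA from -69 to -63 and, without overlap, a C/EBP match from -59 to -52. AP-1 matched 6.75% and C/EBP 9.56% of all 32851 such windows, against 2.44% for PU.1, 3.90% for NF-kB and 0.384% for HNF4. The windows of F7, F10, Proz, F5, F13a1 and Tfpi held no exact match to the letters searched for any of the 5 motifs. Other forms of these sites were not searched, so the windows may still hold them.

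Neither inhibitor of clotting passed. Thbd was the brightest of the 10 and had 6244, 5718, 6633, 7425 and 6939 units in dox lungs, against 7540, 7954 and 7881 units in water lungs. All 5 dox lungs lay below all 3 water lungs, but the log2 change of -0.25 (SE 0.09, 95% interval -0.44 to -0.06) gave an adjusted p of 0.146. Thbd was lower in dox lungs under each alternative run and passed under none of them.

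Tfpi was measured by 4 probe sets that did not move alike. The brightest had 555, 648, 652, 628 and 602 units in dox lungs, against 631, 714 and 562 units in water lungs, with a log2 change of -0.04 (SE 0.09, 95% interval -0.23 to 0.16, adjusted p = 0.870). The second had 249, 249, 272, 269 and 214 units in dox lungs, against 289, 338 and 323 units in water lungs. There all dox lungs were below all water lungs, and the log2 change was -0.34 (SE 0.09, -0.54 to -0.14), which did not pass over all probe sets (adjusted p = 0.0803). Of all probe sets, 6.12% were apart in that direction. The third had a log2 change of -0.19 (SE 0.09, adjusted p = 0.348) with overlapping groups. The fourth held 6.94 to 8.94 units, under the arrays' lower quartile of 13.9 to 14.5 units, and no detection call says whether this is above background. Which Tfpi transcripts each probe set reads was not tested. The change of F3 minus that of the brightest Tfpi probe set was -0.07 (SE 0.21, exact permutation p = 0.75, 0.938 adjusted over 5 pairs).

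In the plasminogen branch the receptor rose, and both activators missed the threshold. Plaur had 518, 513, 466, 437 and 526 units in dox lungs, against 316, 334 and 372 units in water lungs. The groups were well apart, and the log2 change was 0.53 (SE 0.08, 95% interval 0.34 to 0.72, adjusted p = 0.00491). The call of Plaur was lost with the replicate number as a block (adjusted p = 0.052). Plau, its ligand, had 37.4, 39.9, 27.7, 35.0 and 30.6 units in dox lungs, against 33.9, 28.1 and 27.2 units in water lungs. The groups overlapped, and the log2 change was 0.19 (SE 0.12, -0.08 to 0.47, adjusted p = 0.458). Plat had 375, 445, 381, 407 and 446 units in dox lungs, against 315, 395 and 383 units in water lungs. Of the dox values 3 lay above all water values, and the log2 change was 0.18 (SE 0.10, -0.03 to 0.39, adjusted p = 0.356).

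Plau is dim on this array, and the log2 change of Plaur exceeded that of Plau by 0.34 (SE 0.19), which did not pass (exact permutation test, p = 0.143, 0.357 adjusted over 5 pairs). The changes of Plau and Plat differed by 0.01 (SE 0.22, exact permutation p = 0.964, 0.964 adjusted).

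**Figure D5:**
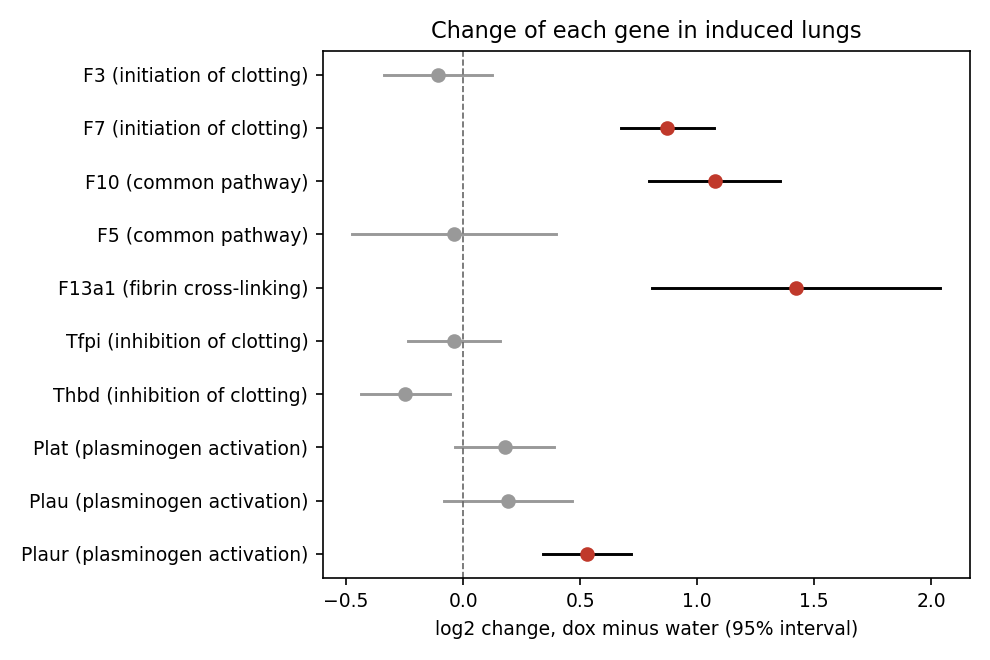
Log2 change of each gene, dox minus water, with its 95% interval, in the order of the cascade; red points passed the threshold over all genes and grey points did not. F7, F10, F13a1 and Plaur stand at 0.87, 1.07, 1.42 and 0.53, and the grey points lie between -0.25 and 0.19.

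Among the other genes listed for the pathway, Proz and vitronectin (Vtn) alone passed, where 5.00% of all genes passed. Of 20 further clotting factors and processing proteins, 0 passed in limma with either prior, 0 had an unadjusted p under 0.05, where 18.7% of all genes had one, and the median log2 change was -0.03. The one with the smallest p was the cargo receptor Lman1 (0.14, SE 0.07, adjusted p = 0.294). Prothrombin (F2) lay under the lower quartile, at 12.3 to 13.5 units in dox lungs against 12.4 to 14.1 units in water lungs. Fga, Fgb and Fgg, the fibrinogen chains that the lung can make in inflammation, had log2 changes of -0.06, 0.02 and -0.19 and did not pass. Fga (8.61 to 16.0 units) and Fgb (11.4 to 15.5 units) were each under 14.5 units, the highest lower quartile of the arrays, on 7 of 8 arrays. Vwf, the endothelial carrier of factor VIII, had a log2 change of -0.13 (SE 0.10, adjusted p = 0.507).

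Of 14 natural anticoagulants, Proz alone rose and 0 fell, with a median of -0.02. An unadjusted p under 0.05 was found for 4 of the 14, against 18.7% of all genes. Procr, the endothelial receptor of protein C, had 434 to 493 units in dox lungs, against 400 to 421 units in water lungs, and its log2 change of 0.18 (SE 0.06) did not pass (adjusted p = 0.165). Of 16 further plasminogen system genes, 1 fell and 0 rose, with a median of 0.07, and 6 had an unadjusted p under 0.05. The one that fell was vitronectin, Vtn, an adhesive plasma and matrix protein that also binds Plaur, with 160 to 192 units in dox lungs, against 204 to 283 units in water lungs (log2 change -0.45, SE 0.11, adjusted p = 0.0387). Its call was lost in 6 of the 8 fits that left out 1 array. Eno1, an enzyme that also binds plasminogen, had a log2 change of 0.25 (SE 0.06) at an adjusted p of 0.05, and it passed under 5 alternatives, among them the trend and robust prior (adjusted p = 0.00963). Thbs1 had a log2 change of 0.55 (SE 0.18, adjusted p = 0.114) and Serpinb2, an inhibitor of urokinase, of 0.59 (SE 0.27, adjusted p = 0.272). Plasminogen itself, Plg, was near the lower quartile, at 14.3 to 20.3 units in dox lungs against 17.9 to 19.0 units in water lungs. Of 3 measured protease-activated receptors, through which thrombin and factor X signal to cells, 0 passed in limma and 1 had an unadjusted p under 0.05, namely F2rl2 (0.23, SE 0.07, adjusted p = 0.0963), which passed without dox 4; F2rl3 was not named on the array.

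Many markers of macrophages, monocytes and neutrophils rose too. In whole lung, more cells of a type and more RNA per cell cannot be told apart. Of 22 macrophage and monocyte markers, 17 rose and 0 fell, or 1 fell without dox 4 (median 1.02), with a summed level of 49021 to 57085 units in dox lungs, against 38309 to 38764 units in water lungs. The largest rises were those of Mmp12 (3.12, SE 0.15) and Cd14 (2.40, SE 0.15). The other 5 did not pass, namely Marco, Cd163, Lyz2, Ear2 and Fabp4. Of the 22, Fabp4 alone had a log2 change below 0 (-1.05, SE 0.33, adjusted p = 0.109). The lowest dox sum was in dox 4, the array with the lowest dox values of F7, F10 and Plaur. Of 15 neutrophil markers, 7 rose (median 0.92), led by Cd177 (3.96) and Mmp8 (2.35). The count was 5 with the trend and robust prior and 5 to 9 with 1 array left out. The other 8 did not pass, among them Ly6g, Elane, Mpo and Camp. Neutrophil marker sums were 5595 to 11034 units in dox lungs, against 2557 to 5137 units in water lungs. The 2 lowest dox sums were in dox 1 (5595) and dox 4 (7739), the arrays with the lowest dox values of F13a1. The macrophage and monocyte sum did not share that order, with 55254 units in dox 1, above the 53550 units in dox 3. In dox 4, where F7, F10 and Plaur had their lowest dox values, the neutrophil sum lay above that in dox 1. Sums of linear values are carried mostly by the brightest markers, and these orders over 5 dox lungs were not tested. The part of macrophages, monocytes and neutrophils in the rises was not tested either.

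Liver is the main source of plasma F7 and F10, and 12 genes of other liver-made plasma proteins were measured beside them. They summed to 528 to 606 units in dox lungs, against 574 to 818 units in water lungs, and 3 of the 12 lay under the lower quartile on all 8 arrays. Alb, the defining one, had 13.4 to 16.2 units in dox lungs, against 13.4 to 16.7 units in water lungs. Of the 12, Hpx, which binds haem, rose (0.37, SE 0.09, adjusted p = 0.0372, lost in 6 of the 8 fits that left out 1 array) and the others did not pass. The part of liver-derived RNA in the changes of F7, F10 and Proz was not tested. Of 16 platelet and megakaryocyte markers, 0 passed in limma with either prior and 1 had an unadjusted p under 0.05, Mmrn1 (-0.31, SE 0.11, adjusted p = 0.164), with sums of 1882 to 3753 units in dox lungs, against 2573 to 3961 units in water lungs. Beside Thbd and Tfpi, 17 of 18 endothelial markers had log2 changes below 0, with a median of -0.25, against -0.025 over all genes. So did 11 of 12 alveolar type 1, 13 of 16 platelet, 11 of 14 fibroblast and smooth muscle and 4 of 11 type 2 markers. Of the endothelial markers 1 passed, Ednrb (-0.57, SE 0.13, adjusted p = 0.0346, lost in 5 of the 8 fits that left out 1 array), or 7 with the trend and robust prior. The endothelial sum was 39699 to 45293 units in dox lungs, against 47572 to 50603 units in water lungs. Its part in the values of Thbd and Tfpi was not tested.

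Other lung cell lists were measured for comparison. Of 12 alveolar type 1 markers 2 fell (5 with the trend and robust prior), Igfbp2 (-0.49) and Sema3a (-0.31), with sums of 49082 to 55601 units in dox lungs, against 59030 to 60615 units in water lungs. Of 11 type 2 markers 4 rose, led by Sftpd (0.44) and Lamp3 (0.40), and 0 fell; without water 1 or without water 2, 2 rose, and with the trend and robust prior 2 fell. Their sums were 93777 to 97163 units in dox lungs, against 88546 to 91569 units in water lungs, so the defining markers of lung were bright in each sample. Of 12 club and mucous cell markers 5 rose, led by Clca1 (5.52) and Slc26a4 (3.68). Of 14 fibroblast and smooth muscle markers 2 fell, Tcf21 (-0.44) and Inmt (-0.36). Of 10 mast cell markers 0 passed in limma, 3 had an unadjusted p under 0.05 and 1 passed with the trend and robust prior, and the smallest p was that of Mcpt4 (-0.30, adjusted p = 0.0508). In the 8 fits that left out 1 array, the call was lost in 4 for Igfbp2, 7 for Sema3a, 6 for Tcf21 and 4 for Inmt.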

How the data were processed

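Total RNA of whole lungs was amplified to biotin-labelled cRNA and hybridised to a single-channel array, per the labels' protocols. The authors deposited linear intensities that RMA had summarised to probe sets, per the submitters' processing notes; its version is not stated there. RMA normally makes the arrays' distributions alike, which hides a change in total RNA. Array medians were 40.8 to 41.9 units, arrays of 1 group correlated with r of 0.994 to 0.997 and arrays of different groups with 0.990 to 0.995 over probe sets, and 0 pairs of arrays were identical. Precision is limited by the number of arrays, and detection calls were not used.

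Symbols were read from a deposited text table, whose 8 value columns match no sample label and were not used. Names were updated with RefSeq's GRCm38.p6 table: 17218 probe sets through accession, 13435 through a current and 1890 through an older symbol, with 4450 kept. The brightest probe set by mean over the 8 arrays stood for a gene. Log2 values were tested with limma 3.58.1 in R 4.3.3 (lmFit, eBayes, 2-sided) for dox against water, and p-values were adjusted by Benjamini-Hochberg over 27200 genes. Pairs of genes were compared by the per-array log2 ratio with an exact permutation test over all 56 splits (scipy 1.17.1). On simulated arrays with 200 changed genes the test found 74% of 1.5-fold and 94% of 2-fold changes, with 8 unchanged genes among 191 calls. The simulated noise was independent between genes, and 1359 genes passed in the data, so these rates need not hold there. Alternatives changed the prior, array weights, normalization, scaling, dim genes, probe sets and the replicate block, and left out each array. Named genes were the 10 members, in each of 14 lists (195 measured genes) the 2 largest changes past the threshold or the smallest p. The result of 1 of the 5 pairs of genes, and 1 gene of the rule, are not reported here. Other genes were chosen after their values were seen. Members and lists were chosen with earlier results of these data known. Same-numbered arrays of the 2 groups did not deviate together over all probe sets (r of 0.011, 0.036 and -0.109). The main fit did not pair them, but these values cannot exclude a batch that same-numbered arrays share. Motifs and neighbours were also looked up after the values were seen. Plots used matplotlib 3.10.9.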

Additional observations from a re-analysis of the deposited data

Results flagged for a closer look

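Of 51 sets of 5 dox values tested, those of the 14 probe sets of the clotting genes and of the other genes named, 1 had a value far from the others: the mucous cell gene Clca1 had 190 units in dox 1, against 1062 to 1749 units in the other dox lungs. Chance alone gives such a value in about 1 of every 20 sets tested. No such value was found among the 14 probe sets of the 10 clotting and plasminogen genes.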

How the results depend on the processing

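Over 16 alternatives, F7, F10, F3, Thbd, Plat and Plau kept their direction and their side of the threshold in all, Plaur in 15 and F13a1 in 12. With the replicate block, 606 genes passed (505 higher, 101 lower), with 24 list genes and 2 of the 10 members, both higher. F13a1 (1.512, adjusted p = 0.0977) and Plaur (0.552, adjusted p = 0.052) no longer passed. The labels do not say whether the replicate numbers pair the arrays. With the trend and robust prior 664 genes were lower. Averaging probe sets turned F3 minus Tfpi to 0.019. Leaving out 1 array gave 893 to 1290 genes (893 without water 2), 661 to 880 higher and 211 to 410 lower, 30 to 46 list genes, and 3 to 4 members, 3 without water 2 or water 3. Over those 8 fits F5 ranged from -0.23 to 0.134 (0.036 without dox 3, 0.025 without dox 5 and 0.134 without water 1), Tfpi from -0.123 to 0.05 (0.0 without dox 1, 0.05 without water 2) and F13a1 from 1.235 to 1.687. Signs also turned for Fgb (-0.068 with the block, -0.034 without dox 5, -0.003 without water 1, otherwise up to 0.076), Fga (-0.218 to 0.228, above 0 without water 3), Plg (-0.11 to 0.016, above 0 without dox 2) and Pf4 (-0.006 to 0.193, below 0 without water 2), none of which passed. Pair differences, which have no test with 1 array left out here, ranged from -0.216 to 0.105 (F3 minus Tfpi), 0.154 to 0.239 (F10 minus F7), -0.086 to 0.215 (Plau minus Plat) and 0.187 to 0.464 (Plaur minus Plau). The cause of these shifts was not tested. Genes near the lower quartile, such as F2, Fga, Fgb, Plg and the fourth Tfpi probe set, are limited by signal over background.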
